A study of Homo sapiens with 4 samples.

Results

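Genes of the basement membrane and of matrix glycoproteins were followed after siRNA against DAXX, a histone H3.3 chaperone, in a pair of human cell lines from neuroendocrine tumours. The set was a list of 34 gene symbols, and the probe set of highest 4-array mean stood for each gene. Of these, 33 were measured among 19775 genes in all, and 23 had a mean at or above the level used as a filter on low values, 4.85 on the log2 scale, which 14648 of all genes passed. LAMA3 was not analysed here. The members were chosen with earlier results of these arrays known, so the counts below describe them.

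The lines were QGP1, from a pancreatic neuroendocrine tumour, and NCI-H727, from a bronchial one. Each line gave 1 array of cells with a negative control siRNA and 1 array of cells with DAXX siRNA (DAXX-KD), and both kinds of siRNA were delivered by electroporation at a final 50 nM. The labels name a pair of DAXX siRNAs without stating that they were mixed, give no time after transfection, and describe the RNA source of these cell lines as tissue specimens. All 4 descriptions mention ALDH high QGP1 cells, and the source of both NCI-H727 samples also names QGP1, so the line names rest on the titles.

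Basement membranes are thin sheets of matrix beneath epithelia and around vessels. Laminin heterotrimers and type IV collagen each build a network, nidogens and the proteoglycans perlecan and agrin bind the networks together, and integrins and dystroglycan anchor cells to them. FRAS1 and the FREM proteins form a complex that holds developing epithelia to the tissue below, whereas matrilins, thrombospondins, fibulins and fibronectin are adaptor or adhesive glycoproteins of the wider matrix. In pancreatic islets much of the basement membrane is laid down by the endothelium, which a pure tumour cell line lacks.

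All arrays were of 1 colour and held RMA values, which are background-corrected, quantile-normalised log2 signals per probe set, with array medians from 5.31 to 5.36. Across genes past the filter, the correlation of a line's control with its DAXX-KD array was 0.993 for QGP1 and 0.988 for NCI-H727, and that of the 2 control arrays was 0.828. The DAXX signal was 8.52 in control and 6.56 in DAXX-KD QGP1 and 7.35 and 6.14 in NCI-H727, lower in the DAXX-KD array of each line. All 8 neuroendocrine and all 5 epithelial markers lay above the filter level on each array. Of 8 fibroblast markers 4 lay above it on each array, with list means from 4.92 to 5.09. COL3A1 (3.80 to 3.89) and LUM (2.96 to 3.34) were under it on each array, and COL1A1 read from 7.25 to 7.66. Of 7 endothelial markers 4 or 5 lay above it (list means 4.61 to 5.25), with CDH5 under it on each array (3.32 to 4.47) and KDR at 4.45 and 4.94 in QGP1 and 6.98 and 7.17 in NCI-H727. Of 4 measured leukocyte markers, 2 or 3 lay above it (list means 4.92 to 5.79), with PTPRC under it on each array (3.0 to 3.68) and LYZ from 6.85 to 8.90. Arrays of bulk RNA do not separate fewer cells of a type from less RNA per cell.

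With 1 array per group there was no replicate within a line, so knockdown differences (DAXX-KD minus control, log2) are given by size alone. As a yardstick, the SD between probe sets of the same gene was 0.202 for QGP1 and 0.275 for NCI-H727. The middle 95% of genes past the filter spanned -0.47 to 0.52 in QGP1 and -0.77 to 0.52 in NCI-H727. Levels are compared within a probe set across arrays, not between genes.

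After DAXX knockdown a few members stood apart, and the median of the rest was smaller in each line than the SD between probe sets. In QGP1, MATN2 was at least 2-fold lower, and so were the FREM2 values, which both lay under the filter level there; this made 2 of 23 members past the filter against 0.232% of all genes. Among members at the filter level on an array of QGP1 the count was 1 of 18, MATN2, against 0.225%. In QGP1 0 members were at least 2-fold higher, against 0.259%. In NCI-H727, FREM2, MATN2 and NPNT were at least 2-fold lower, 3 of 23 against 1.32%, and THBS1 was at least 2-fold higher, 1 of 23 against 0.177%; over the 22 members measured in that line the same genes were counted, against 1.33% and 0.174%. MATN2 was at least 2-fold lower in both lines, 1 of 17 members measured in both against 0.129% of genes. With FREM2, whose QGP1 difference lies between dim values, it was 2 of 23, against 0.13% of those past the filter and 0.0961% with no filter. The same genes were counted over all 33 measured members with no filter, against 0.192% lower and 0.253% higher in QGP1 and 1.05% lower and 0.142% higher in NCI-H727.

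**Figure D1:**
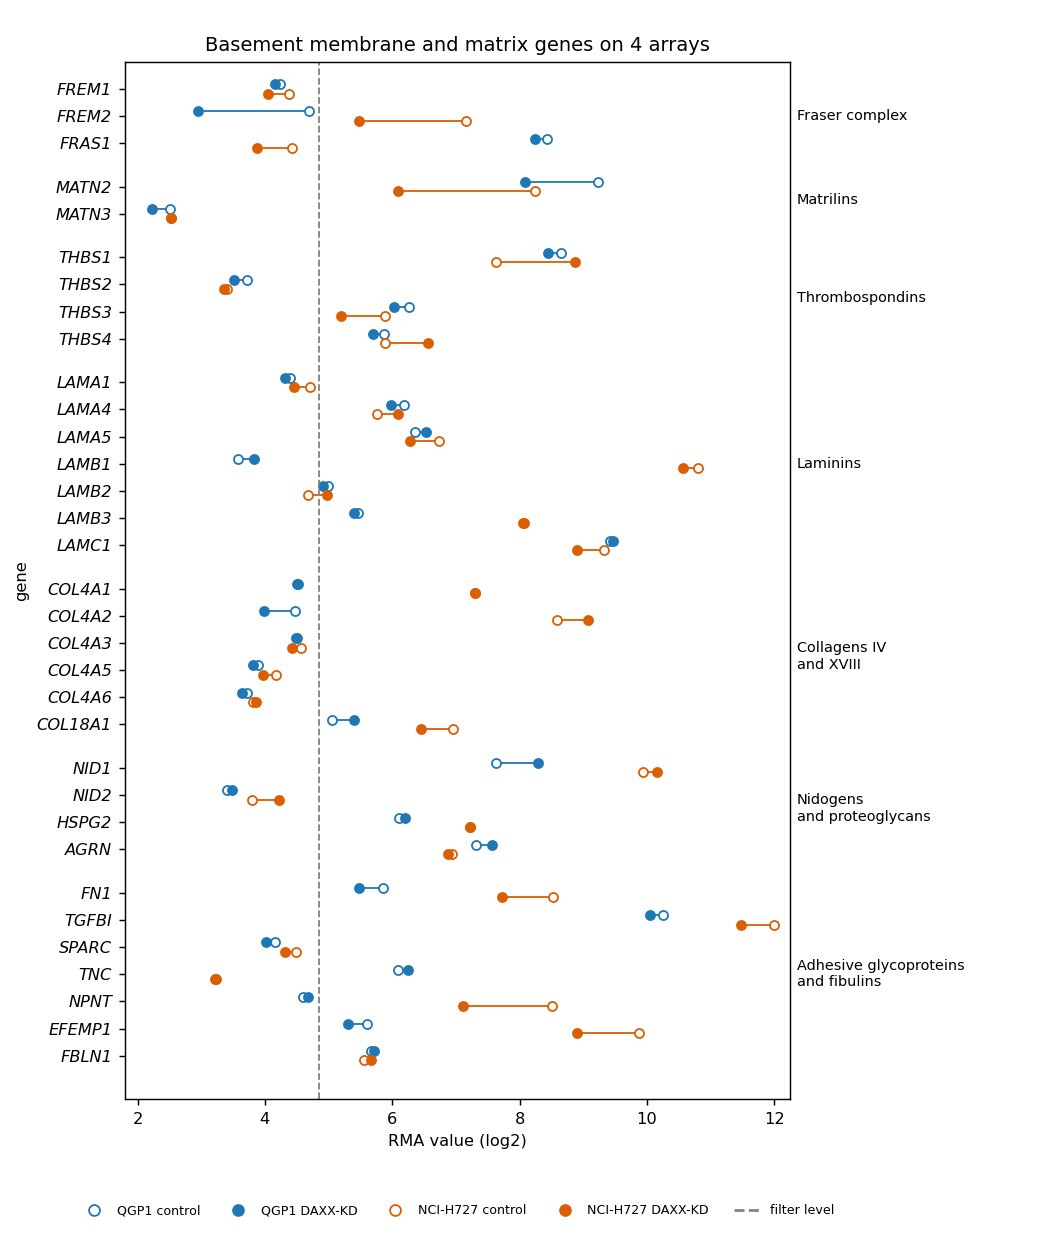
RMA values (log2, horizontal axis) of the 33 measured members on each of the 4 arrays, by role; open points are control and filled points DAXX-KD arrays, blue QGP1 and orange NCI-H727, and the dashed line is the filter level of 4.85. Each point is 1 array; the lines of points for FREM2 and MATN2 run to the left in both cell lines, and LAMB1, COL4A1 and COL4A2 lie under the filter level in QGP1 and above it in NCI-H727.

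FREM2, a membrane-spanning subunit of the Fraser complex, read 4.70 in control and 2.95 in DAXX-KD QGP1. In NCI-H727 it read 7.16 in control and 5.48 in DAXX-KD cells. The DAXX-KD array was the lower of each pair, 3.19-fold in NCI-H727 and by 1.75 on the log2 scale in QGP1, where both values lay under the filter level and RMA compresses differences. FREM2 had 1 probe set, so no second reading was at hand.

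The knockdown was repeated only across the lines, and all 4 arrays entered 1 limma fit that blocked on the line. Its residual is the disagreement of the lines' knockdown differences, so an SE grows where these are unlike. For FREM2 the fit gave -1.71 (SE 0.13, adjusted p = 0.374). This value averages NCI-H727 with a QGP1 pair under the filter level and so rests on NCI-H727 for a measured level. In this fit 0 of 23 members passed an adjusted p of 0.05, as did 0% of all genes, and 6 members against 6.92% of all genes had an unadjusted p under 0.05. These 6 were FREM2, MATN2, FN1, EFEMP1 and THBS3, all lower, and NID1, higher. When the limma prior was given an intensity trend, FREM2 was 1 of 5 genes called (adjusted p = 0.0396), with the same dim QGP1 pair. Over the alternatives that kept FREM2 its adjusted p ran from 0.0396 to 1, the last without cell line in the fit, and a filter at the 60th percentile left it out.

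FRAS1, another large protein of the complex, read 8.42 in control and 8.23 in DAXX-KD QGP1. In NCI-H727 FRAS1 read 4.42 and 3.87, both under the filter level. At the probe set used, FRAS1 was thus high in QGP1 where FREM2 was under the filter level, and the reverse held in NCI-H727. The knockdown differences of FRAS1 were -0.19 and -0.55, the first smaller than the SD between probe sets. FREM1, the secreted member, lay under the filter level on each array, from 4.05 to 4.37, with differences of -0.09 and -0.32. The other FRAS1 probe sets differed less between the lines: the 5 others read from -1.02 to 0.02 for NCI-H727 minus QGP1 in control cells, against -4.0 at the first. Those of them past the filter differed by -0.14 and 0.02. In control and DAXX-KD NCI-H727 they read 5.33 and 5.65, and 5.21 and 5.23, above the filter level. The opposite pattern of FRAS1 and FREM2 therefore rests on 1 FRAS1 probe set.

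MATN2, a matrilin that links collagens, fibronectin and laminin-nidogen complexes, read 9.24 in control and 8.08 in DAXX-KD QGP1. In NCI-H727 it read 8.25 and 6.09. DAXX-KD cells had the lower value in each line, 2.22-fold in QGP1 and 4.47-fold in NCI-H727, and the joint limma difference was -1.66 (SE 0.26, adjusted p = 0.413). The second MATN2 probe set, with readings from 3.84 to 4.46, all under the filter level, gave differences of 0.33 (QGP1) and -0.63 (NCI-H727). The direction in QGP1 therefore rests on the brighter probe set, which carries the s_at suffix of probe sets that may bind more than 1 transcript. MATN3, a cartilage matrilin, stayed between 2.23 and 2.52 on all 4 arrays, under the filter level.

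Thrombospondins are multimeric glycoproteins that bind cells, proteases and growth factors, and THBS1 also activates latent TGF-beta. THBS1 read 8.65 in control and 8.44 in DAXX-KD QGP1, and 7.62 and 8.88 in NCI-H727. The DAXX-KD array of NCI-H727 held the highest THBS1 value of the 4 and its control the lowest. The difference was 2.39-fold higher in NCI-H727 and -0.21 in QGP1, and the joint limma value, 0.52 (SE 0.35, adjusted p = 0.873), averages these unlike differences. All 6 other THBS1 probe sets were higher in DAXX-KD NCI-H727, by 0.02 to 0.75, so 1 of 7 passed 2-fold. In QGP1 the 7 probe sets ranged from -0.37 to 0.26. The 3 brightest probe sets gave the 3 largest differences in NCI-H727.

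THBS3 and THBS4, the pentameric thrombospondins of this list, went opposite ways in NCI-H727. THBS3 read 5.88 in control and 5.20 in DAXX-KD NCI-H727, 1.61-fold lower, and 6.26 and 6.02 in QGP1. THBS4 read 5.88 and 6.56 in NCI-H727, 1.61-fold higher, and 5.87 and 5.69 in QGP1. Each of these genes had 1 probe set. THBS2, which like THBS1 is trimeric, lay under the filter level on all arrays, from 3.35 to 3.72. The QGP1 differences of the 4 genes, from -0.23 to -0.18, were about the size of the SD between probe sets, and in NCI-H727 they ranged from -0.68 to 1.25.

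The start regions of FREM2 and THBS1 are shown because these genes gave the knockdown differences above; MATN2 is not shown. They hold the 250 bases before the start of each gene, 5′ to 3′ on the gene's strand, from RefSeq (GRCh38.p14), at chr13:38686827-38687076 (plus strand) for FREM2 and chr15:39580829-39581078 (plus strand) for THBS1. Capitals mark matches on either strand to the motifs searched for: the GC box was GGGCGG, and the CCAAT box its own letters. The TATA box was written TATAAA, the AP-1 motif was written TGACTCA, and the E-box was written CACGTG.
FREM2: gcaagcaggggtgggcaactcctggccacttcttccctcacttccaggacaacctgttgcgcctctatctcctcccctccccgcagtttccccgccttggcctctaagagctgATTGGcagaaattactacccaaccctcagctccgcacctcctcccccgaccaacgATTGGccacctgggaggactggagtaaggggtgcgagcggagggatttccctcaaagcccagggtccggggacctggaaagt
THBS1: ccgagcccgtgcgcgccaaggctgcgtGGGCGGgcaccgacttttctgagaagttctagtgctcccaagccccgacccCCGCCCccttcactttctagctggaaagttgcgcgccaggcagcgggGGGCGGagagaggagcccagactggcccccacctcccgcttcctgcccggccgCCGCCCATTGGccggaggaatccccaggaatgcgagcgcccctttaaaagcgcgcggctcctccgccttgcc
The FREM2 window held 2 CCAAT matches and 0 GC boxes, and the THBS1 window 4 GC boxes and 1 CCAAT match that abuts 1 of them without overlap. Among 35116 start regions in the table, 42.6% held a GC box and 32% a CCAAT match in 250 bases. The TATA box, AP-1 motif and E-box had 0 matches in either window, against 10.7%, 4.2% and 6.34% of all. The G and C share was 61.2% for FREM2 and 69.6% for THBS1, with a median of 58% over all start regions.

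NPNT (nephronectin), a ligand of integrin alpha8 beta1, read 8.51 in control and 7.10 in DAXX-KD NCI-H727, 2.65-fold lower. In QGP1 it read 4.59 and 4.67, both under the filter level. The knockdown difference could thus be read in NCI-H727 alone, and the second NPNT probe set, under the filter level, differed by -0.17 there. EFEMP1 (fibulin-3), an elastic fibre glycoprotein, read 9.87 and 8.90 in NCI-H727, 1.96-fold lower, just short of 2-fold, and 5.61 and 5.31 in QGP1. Its second probe set past the filter was lower too, by 1.13 in NCI-H727 and 0.33 in QGP1, from 3.63 to 3.30 in the latter, under the filter level.

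FN1, the fibronectin gene, followed the same order as EFEMP1, with 5.86 and 5.47 in QGP1 and 8.52 and 7.72 in NCI-H727 (control, then DAXX-KD), 1.74-fold lower in NCI-H727. Of its 7 probe sets, the 5 past the filter were lower in DAXX-KD NCI-H727, by 0.08 to 0.88, whereas in QGP1 they ranged from -0.64 to 0.27. TGFBI, an integrin-binding matrix protein induced by TGF-beta, differed by -0.20 and -0.52. FBLN1 (fibulin-1) read from 5.55 to 5.71 over the 4 arrays at the probe set used. Its second probe set gave -0.60 for QGP1 and 0.39 for NCI-H727, so the QGP1 value depends on the probe set. SPARC, a collagen-binding matricellular protein, lay under the filter level throughout, from 4.01 to 4.48.

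**Figure D2:**
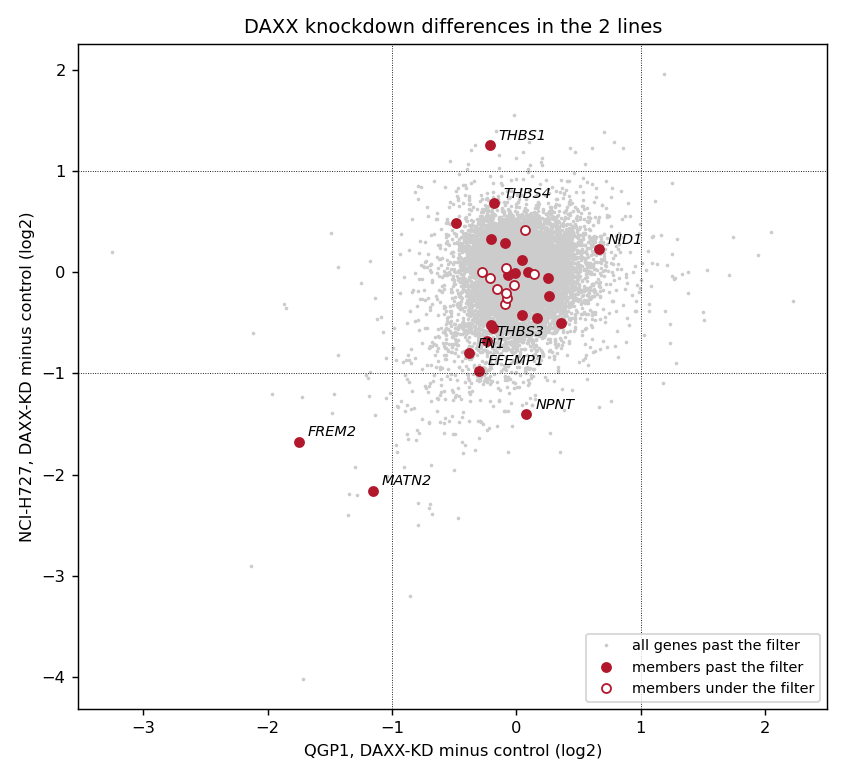
Knockdown difference in QGP1 (horizontal axis, log2) against that in NCI-H727 (vertical axis, log2) for all 14648 genes past the filter (grey), members past the filter (filled red) and members under it (open red); dotted lines mark 2-fold and named genes passed 1.5-fold in a line. FREM2 (-1.75, between QGP1 values under the filter level, and -1.67) and MATN2 (-1.15 and -2.16) lie past both 2-fold lines, and THBS1 (-0.21 and 1.25) lies above the 2-fold line of NCI-H727.

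Laminins, the cell-adhesive heterotrimers of the basement membrane, showed no 1.5-fold knockdown difference at the probe sets used. The 7 measured chains ranged from -0.21 (LAMA4) to 0.26 (LAMB1) in QGP1 and from -0.45 (LAMA5) to 0.33 (LAMA4) in NCI-H727. LAMC1, the gamma chain of most laminins, read 9.42 and 9.46 in QGP1 and 9.32 and 8.90 in NCI-H727. LAMB3, a chain of the laminin of hemidesmosomes, differed by -0.07 and -0.02. A second LAMB1 probe set was lower by 0.70 in DAXX-KD NCI-H727, and a second LAMA4 probe set by 0.82, whereas a further LAMA4 probe set was higher by 0.75 in DAXX-KD QGP1, so single chains passed 1.5-fold at other probe sets.

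Type IV collagens, the network-forming collagens, showed no 1.5-fold knockdown difference. COL4A1 read 7.30 in both NCI-H727 arrays, and COL4A2, whose product joins the same heterotrimer, read 8.58 in control and 9.07 in DAXX-KD cells, 1.41-fold higher. Their second probe sets were higher in DAXX-KD NCI-H727 by 0.54 and 0.41, so the level COL4A1 value rests on its brighter probe set. COL4A3, COL4A5 and COL4A6 lay under the filter level on each array. COL18A1, the source of endostatin, gave 0.36 for QGP1 and -0.50 for NCI-H727, and its second probe set by 0.04 and -0.06.

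Of the nidogens and proteoglycans, NID1, the linker between laminin and collagen IV, read 7.62 in control and 8.28 in DAXX-KD QGP1, 1.58-fold higher, and 9.93 and 10.2 in NCI-H727. It was the 1 member at least 1.5-fold higher in QGP1, against 1.74% of all genes. At the other 2 NID1 probe sets the QGP1 differences were -0.02 and -0.20, so this value rests on 1 of 3. HSPG2 (perlecan) differed by 0.09 and 0.004, AGRN (agrin) by 0.25 and -0.06 (-0.36 and 0.29 at its dimmest probe set), and NID2 lay under the filter level on each array, from 3.41 to 4.22.

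At 1.5-fold, 6 of 23 members past the filter were lower in NCI-H727, against 4.96% of all genes, and 2 were higher, against 1.6%. In QGP1 2 were lower, MATN2 and FREM2, against 1.32%, and the FREM2 values there both lay under the filter level. Apart from FREM2, MATN2 and THBS1, the 30 other measured members ranged from -0.48 (COL4A2) to 0.66 (NID1) in QGP1 and from -1.40 (NPNT) to 0.68 (THBS4) in NCI-H727. Their medians were -0.08 and -0.09, beside 0.005 and 0.03 over all genes. For the 20 of them past the filter the medians were -0.04 and -0.15. Over the 23 members past the filter the medians were -0.09 and -0.23, beside 0.02 and 0.02 over all genes past it. Of the 33 measured members 15 were below control by any size in both lines, against 21.7% of all genes, both counted with no filter. Only 9 of these 15 were past the filter, a count with no share of all genes past it beside it. The signs of the rest were read from dim values. Among the 9, so were those of FREM2 and COL4A1 in QGP1 and of FRAS1 in NCI-H727. The 9 include differences as small as those of COL4A1, -0.015 and -0.005.

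**Figure D3:**
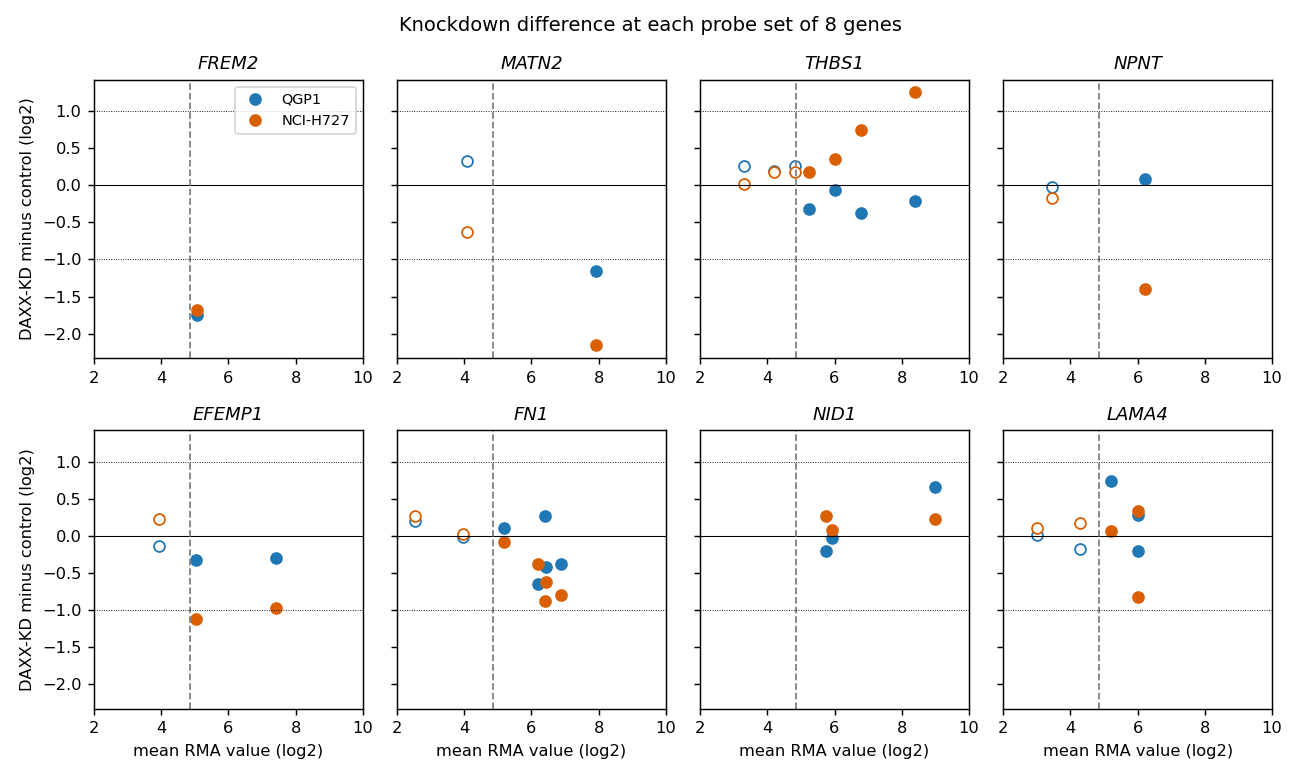
Knockdown difference (vertical axis, log2) at each probe set of 8 members against the probe set's mean value over the 4 arrays (horizontal axis, log2), in QGP1 (blue) and NCI-H727 (orange); open points lie under the filter level (dashed line) and dotted lines mark 2-fold. The brighter probe set of MATN2 is past 2-fold in both lines and the dim one is not, the 3 brightest THBS1 probe sets have the 3 largest differences in NCI-H727, and both EFEMP1 probe sets past the filter are lower in NCI-H727.

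Between the lines, many members differed severalfold. NCI-H727 held higher signals than QGP1 for LAMB1, COL4A1, COL4A2, LAMB3, EFEMP1, NPNT, FN1, FREM2, NID1, TGFBI, COL18A1 and HSPG2. QGP1 held higher signals for FRAS1, MATN2, THBS3 and AGRN. In the limma fit, whose line coefficient compares 2 arrays per line that differ in treatment, these 12 and 4 of 23 members passed an adjusted p of 0.05, against 23.2% and 25.1% of all genes. Of the 12, LAMB1, COL4A1, COL4A2, NPNT and FREM2 lay under the filter level on both QGP1 arrays, and FRAS1 did on both NCI-H727 arrays. These 6 passed the filter only through the line where they are high, so they had to differ, and their counts support nothing. Of the 17 members measured in both lines, 7 were called higher and 3 lower in NCI-H727, against 22% and 24.4% of such genes. For the 6 others the line difference is a bound, the mean of the brighter line over the filter level, which stands for the dimmer one. THBS3 and AGRN, though called, differed by only -0.38 and -0.37 in control arrays (NCI-H727 minus QGP1). Both are smaller than the SD between probe sets of the same gene for that difference, 0.645. In DAXX-KD arrays THBS3 and AGRN differed by -0.83 and -0.68, both larger than that SD. The other AGRN probe sets, all past the filter, gave from -0.12 to 0.09 in control arrays and from -0.40 to 0.68 in DAXX-KD arrays. The limma fit called 48.3% of all genes, and the labels name no repeated culture. Its 1 residual degree of freedom is how far the knockdown differences of the lines disagree. Its p-values measure that spread, together with the prior, and not a spread between cultures. Part of that spread may be technical.

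LAMB1, the beta1 chain of the laminins with the widest tissue range, read 3.57 and 3.83 in control and DAXX-KD QGP1, both under the filter level, and 10.8 and 10.6 in NCI-H727. It was at least 56.7-fold higher in NCI-H727, and the second probe set read 3.57 and 3.80 against 9.94 and 9.24. LAMB3 read 5.46 and 5.39 in QGP1 and 8.07 and 8.05 in NCI-H727, 6.13-fold higher in control cells. LAMA5 and LAMB2 did not pass in limma, with differences of 0.07 (adjusted p = 0.784) and -0.12 (adjusted p = 0.54).

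The reading of LAMA4, the alpha4 chain of endothelial and muscle laminins, depended on the probe set. The probe set used, with a mean of 6.01, read from 5.76 to 6.19 and differed between the lines by -0.16 in limma (SE 0.17, adjusted p = 0.474). A second, with a mean of 6.0, read 3.47 and 3.75 in QGP1 and 8.80 and 7.98 in NCI-H727, and another read 4.20 and 4.95 against 5.84 and 5.90. Taking for each gene the probe set with the highest value on any array, an alternative chosen after the data were seen, gave LAMA4 a line difference of 4.78 (SE 0.28, adjusted p = 0.000171), with QGP1 values under the filter level. LAMC1 showed the same kind of split, with -0.33 at the probe set used (adjusted p = 0.154) and 1.55 (adjusted p = 0.000878) under this alternative in limma.

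COL4A1 and COL4A2, which encode the chains of the most widespread collagen IV, are head-to-head neighbours. COL4A1 read 4.52 and 4.51 in QGP1, under the filter level, and 7.30 on both NCI-H727 arrays. COL4A2 read 4.47 and 3.98 in QGP1, also under it, and 8.58 and 9.07 in NCI-H727. COL4A1 was at least 5.46-fold and COL4A2 at least 15.7-fold higher in NCI-H727. Both genes were thus above the filter level in NCI-H727 only, and at their dimmer second probe sets the control arrays differed by 0.42 and 0.27.

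The stretch between the pair's start sites is shown because both genes were higher in the same line. It spans the 126 bases at chr13:110307158-110307283 (GRCh38.p14, RefSeq), printed 5′ to 3′ on the plus strand, which is the strand of COL4A2; COL4A1 starts at its left end on the minus strand. The start regions of LAMB1 (chr7:108003162-108003411, minus strand) and NPNT (chr4:105895221-105895470, plus strand), other genes higher in NCI-H727, follow with the 250 bases before each start. Capitals mark the same motifs as above.
COL4A1-COL4A2: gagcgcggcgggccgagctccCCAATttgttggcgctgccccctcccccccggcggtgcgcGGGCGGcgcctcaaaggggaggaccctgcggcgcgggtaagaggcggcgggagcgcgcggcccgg
LAMB1: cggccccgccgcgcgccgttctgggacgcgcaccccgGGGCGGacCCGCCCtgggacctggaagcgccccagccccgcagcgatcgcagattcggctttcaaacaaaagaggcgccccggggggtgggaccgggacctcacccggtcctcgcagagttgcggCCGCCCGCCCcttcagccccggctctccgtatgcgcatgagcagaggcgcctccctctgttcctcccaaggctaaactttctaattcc
NPNT: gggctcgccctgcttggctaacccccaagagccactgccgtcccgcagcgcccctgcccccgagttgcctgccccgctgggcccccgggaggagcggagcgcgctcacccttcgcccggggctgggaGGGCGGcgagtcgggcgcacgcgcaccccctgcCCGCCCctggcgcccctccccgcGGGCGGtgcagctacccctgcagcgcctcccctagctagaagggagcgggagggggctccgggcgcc
The shared stretch held 1 CCAAT match and 1 GC box, against 21.1% and 34.6% of all start regions in 126 bases. LAMB1 held 4 GC boxes, of which 2 overlap, and NPNT 3, each with 0 CCAAT matches. The TATA box, AP-1 motif and E-box had 0 matches in these 3 windows; in 126 bases 5.87%, 2.46% and 4.04% of all start regions held them. The G and C share was 80.2% in the shared stretch (median 60.3% over all regions of that length), 70.4% for LAMB1 and 79.2% for NPNT.

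**Figure D4:**
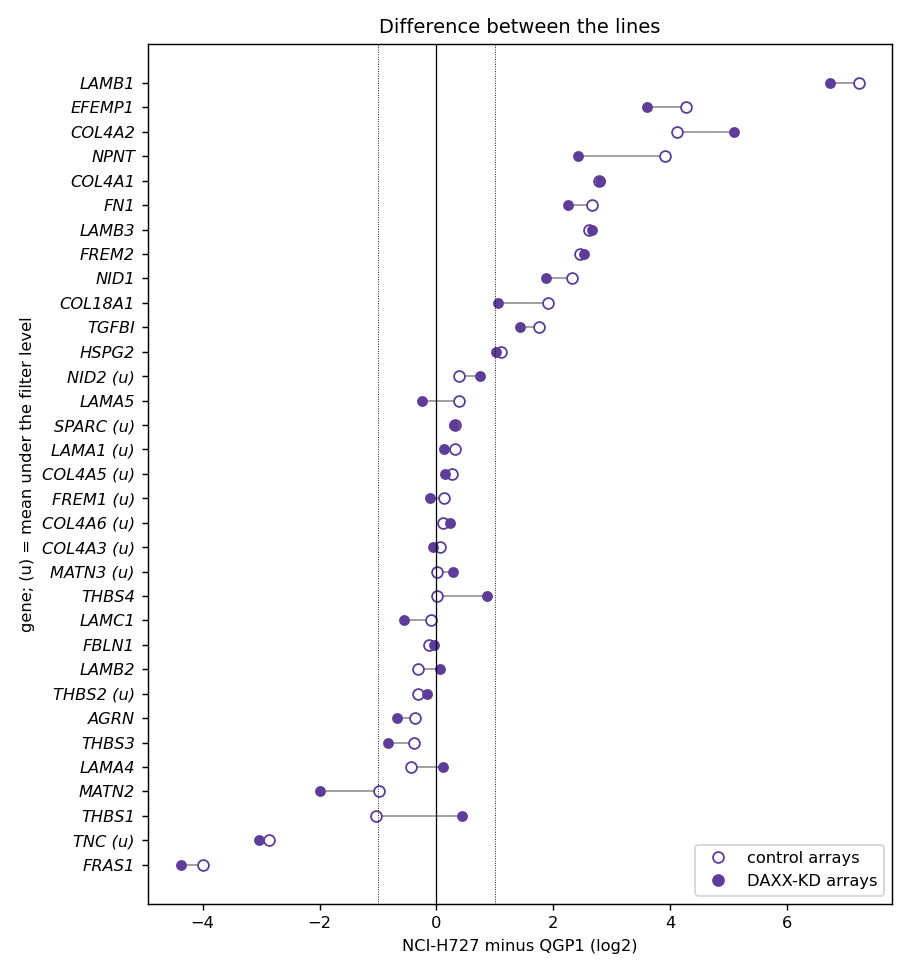
Difference between the lines (NCI-H727 minus QGP1, log2, horizontal axis) for each measured member, in control arrays (open) and DAXX-KD arrays (filled); each point is a difference of 2 arrays, dotted lines mark 2-fold and (u) marks genes with a mean under the filter level. LAMB1 (7.22 and 6.73) lies at one end and FRAS1 (-4.0 and -4.36) at the other, and THBS1 is the member whose points lie on both sides of 0 with one of them past 2-fold.

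Control arrays alone gave the same 12 members at least 2-fold higher in NCI-H727, of 23 past the filter against 11.3% of all genes, and DAXX-KD arrays alone also gave these 12, against 10.5%; 5 of the 12 are the members under the filter level in QGP1. FRAS1 and THBS1 were at least 2-fold lower in NCI-H727 control cells, against 10.6%, and FRAS1 and MATN2 in DAXX-KD cells, against 13.4%. EFEMP1 was 19.2-fold higher in NCI-H727 control cells, FN1 6.35-fold and NID1 4.96-fold. TGFBI was 3.36-fold higher and HSPG2 2.15-fold. These sizes depend on the probe set. On the log2 scale, the other probe sets past the filter gave 3.57 for EFEMP1, from 0.31 to 3.85 for FN1, and 1.65 and -0.04 for NID1. The second COL18A1 probe set gave 0.92, against 1.91 at the one used. The second HSPG2 probe set, with a mean under the filter level, gave 0.001.

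TNC (tenascin-C), an anti-adhesive glycoprotein of tumour stroma, went the other way. It read 6.09 and 6.24 in QGP1 and 3.23 and 3.21 in NCI-H727, under the filter level, so its mean was left out by the filter and it had no place in the counts above; it was at least 2.48-fold higher in QGP1. FRAS1 was at least 11.1-fold higher in QGP1 at the probe set used. Its other probe sets past the filter gave -0.14 and 0.02 in control arrays (NCI-H727 minus QGP1). NPNT was at least 7.73-fold and FREM2 at least 2.76-fold higher in NCI-H727. MATN2 differed by -1.49 in limma (SE 0.26, adjusted p = 0.00662), higher in QGP1. Without treatment in the limma fit its adjusted p was 0.16. The second MATN2 probe set, under the filter level, gave 0.59 in control arrays, the other way.

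Lists of genes around the set each held at most 1 gene with a 2-fold knockdown difference in a line. Of 32 other basement membrane and matrix genes measured, 25 past the filter, SMOC2, a calcium-binding basement membrane glycoprotein, was the 1 at least 2-fold lower in NCI-H727 (6.86 to 5.49), where 1.32% of all genes were. With the mean of its probe sets SMOC2 differed by -0.83 there, and by -0.28 at its other probe set. Of 22 matrix receptors, 20 past the filter, the collagen-binding integrin ITGA1 was the 1 lower there (6.86 to 5.71); at its probe set with the highest value on any array it differed by -0.85. Of 17 assembly and crosslinking genes, 16 past it, MIA3, which exports collagens from the endoplasmic reticulum, was the 1 lower there (7.70 to 6.61). In QGP1 0 genes of these 3 lists passed 2-fold, where 0.232% of all genes were lower and 0.259% higher, and 0 were 2-fold higher in NCI-H727.

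Proteases and TGF-beta genes gave 0 members past both the filter and 2-fold, of 15 and 15. PLAT, the tissue plasminogen activator, went from 5.37 to 4.0 in QGP1 and had a mean under the filter level. TIMP2, an inhibitor of matrix metalloproteinases, was higher in both lines (0.74 and 0.55), as was PLAU, the urokinase (0.41 and 0.64). CCN2, a matricellular target of TGF-beta, was lower in both (-0.53 and -0.60), as was the receptor TGFBR1 (-0.44 and -0.54). The laminin chain LAMA2 (0.48 and 0.79) and the proteoglycan SPOCK1 (0.57 and 0.50) were higher in both, as were the collagen-binding integrin ITGA2 (0.43 and 0.68) and SEC23A, a coat protein of secretory vesicles (0.40 and 0.81). Over these 5 lists 0 genes passed an adjusted p of 0.05 in the joint limma fit, as did 0% of all genes. An unadjusted p under 0.05, which 6.92% of all genes had, was found for 4 of 25 other matrix genes, 2 of 20 receptors, 2 of 16 assembly genes, 2 of 15 proteases and inhibitors and 3 of 15 TGF-beta genes.

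The endothelial marker PECAM1 read 5.74 in control and 6.80 in DAXX-KD QGP1, and 5.43 and 5.64 in NCI-H727. It was the 1 marker of the 5 marker lists past 2-fold in a line. In QGP1 0.259% of all genes past the filter were at least 2-fold higher. The rest of the endothelial list went both ways in QGP1, from -0.55 (TEK) to 0.49 (KDR). The part of PECAM1 in the differences of the matrix genes was not tested.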

How the data were processed

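Total RNA of 4 cell line samples, 1 for each of 4 groups taken from the sample titles, was measured on Affymetrix arrays; precision is limited by the number of arrays. The authors deposited RMA values, log2 per probe set. The submitters' processing notes name affy 1.40.0 and R 3.0.3. RMA makes values relative to the other genes of an array and compresses differences near background. Of 54613 probe sets, 41091 had 1 gene symbol in the platform annotation; 1801 with several and 11721 with none were not used. RefSeq (GRCh38.p14) held the Entrez identifier of 41037 probe sets, and 0 symbols changed.

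The probe set of highest 4-array mean stood for a gene; tests took genes whose mean reached the 40th percentile of all probe sets. Line-wise differences have no replicate and no test. The joint fit (limma 3.58.1, R 4.3.3; treatment and cell line as terms, 1 residual plus 4.18 prior degrees of freedom, two-sided, Benjamini-Hochberg over 14648 genes) gave the tests. Members and lists were chosen with earlier results of these data known. Members at 1.5-fold or more or called between lines were named in full; other lists named genes past 2-fold and the 1 or 2 others with the largest joint difference. Start regions came from RefSeq (30 of 34 members matched; AGRN, EFEMP1, LAMA1 and MATN2 did not); Python 3.11.15 searched motifs. Alternatives covered the probe set rule, suffixes, filter, normalization, fold, prior and block. Leaving out an array leaves no residual degree of freedom, so no such fit was made.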

Additional observations from a re-analysis of the deposited data

Results flagged for a closer look

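For 4 members past the filter the lines differed in opposite directions after knockdown, each by more than the SD between probe sets of 1 gene. With 1 array per group the difference between the lines was not tested. NCI-H727 minus QGP1 knockdown differences were 1.47 for THBS1, 0.98 for COL4A2, 0.54 for LAMA4 and -0.86 for COL18A1. The COL4A2 values in QGP1 lay under the filter level, and the LAMA4 signs were the other way at its second probe set (0.29 in QGP1 and -0.82 in NCI-H727). The second COL18A1 probe set differed by 0.04 and -0.06.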

How the results depend on the processing

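With the mean of all probe sets of a gene, members at least 2-fold lower in QGP1 numbered 1 in place of 2, those higher in NCI-H727 0 in place of 1, and those called lower in NCI-H727 than in QGP1 2 in place of 4. Without x_at and s_at probe sets these counts were 1, 0 and 1, and MATN2 in QGP1 turned to 0.33, at a probe set under the filter level. A filter at the 60th percentile, which leaves out FREM2, gave 1 lower in QGP1. At 1.5-fold 1 was higher in QGP1, and 6 were lower and 2 higher in NCI-H727. The intensity trend called 1 member, FREM2, in the joint limma fit. No replicate block (each coefficient alone) called 0 for the knockdown and 2 in place of 4 lower in NCI-H727; control arrays and DAXX-KD arrays alone gave 2 and 2 at 2-fold. The labels give no replicate numbers, so no pairing beyond the cell line could be tried.

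Counts of members called higher in NCI-H727 ranged from 7 to 14 around 12. Counting only genes at the filter level on an array of each line compared, chosen after the data were seen, gave 1 lower in QGP1 and 7 called higher in NCI-H727, since members dim in a line leave the count. Of single-gene differences, 46 of 46 moved by less than the SD between probe sets after intensity-dependent centring and 44 after a second quantile normalization. Averaging the probe sets of each gene moved 13 by more, and taking the highest value on any array, chosen after the data were seen, moved 4. Leaving out x_at and s_at probe sets kept 29, moved 6 and reversed 1, MATN2 in QGP1, and left the other genes without a value. The causes of these moves were not tested. Depth has no counterpart here; dim probe sets limit FREM2, NPNT and the collagens in QGP1.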
